A study of Sus scrofa with 18 samples.

Results

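The predicted miRNAs are the entries of the small RNA table that carry only the authors' own number, written novel_ and a number, and no miRBase name. They were chosen by that name alone, and 110 of the 465 listed mature miRNAs met the rule. The other 355 carry a miRBase name and serve here as the background. The study measured small RNA in 2 muscles, given in the labels only as HC-L and HC-P, of adult Hechuan black pigs described as castrated sows, in a comparison of oxidative with glycolytic muscle and the exosomes of each. The labels used here do not say which code is the oxidative muscle. Each muscle is represented by 3 tissue libraries and 3 libraries of exosomes, which were pelleted from minced and homogenised muscle, so that vesicles of any cell type in it could be collected. All groups thus share breed and sex status and come from muscle, but they differ in the muscle and in the kind of sample. The labels do not say whether replicates are separate pigs, so p-values measure only the spread between these libraries.

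A miRNA is a short RNA cut from a hairpin precursor that pairs with messenger RNAs through its seed and lowers their output. Software predicts a miRNA without a database name when reads stack on a genomic locus that can fold into such a hairpin. Predicted entries are usually scarce, and some of them can be fragments of other RNAs. Exosomes are small vesicles released by cells, and their small RNA can differ in composition from that of the tissue. Sequences and loci of the predicted miRNAs were not analysed here, so the entries are described by number and abundance.

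Tissue libraries held between 3964875 and 9016010 miRNA reads, and exosome libraries between 106040 and 959599. The 6 muscle marker miRNAs (miR-1, miR-133a-3p, miR-206, miR-208b, miR-499-5p and miR-486) were all present in every group and took 49.8% to 81.1% of reads in tissue and 53.2% to 67.8% in exosomes. The lowest tissue share was that of HC-P tissue replicate 1, and the other 5 tissue libraries held at least 72.5%. Among exosome libraries the lowest shares were those of HC-L exosome replicate 3 (53.2%) and HC-P exosome replicate 3 (54.5%), against at least 64.6% in the other 4. Within their groups these 3 libraries had the highest summed share of predicted miRNAs, as given below. Single entries could go the other way. Examples are novel_84, with no read in HC-P exosome replicate 3, and novel_275, lowest among tissue libraries in HC-P tissue replicate 1. Thinned to 106040 reads, the same 3 libraries were also expected to show the most miRNAs with a miRBase name within their groups (222, 218 and 225). Tissue RNA was extracted with Trizol and exosome RNA with Trizol LS, and exosome libraries were shallower. These differences and the kind of sample cannot be told apart, and in bulk tissue neither can fewer cells of a type and less RNA per cell.

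Predicted miRNAs took a very small share of the miRNA reads, and the mean share was higher for exosomes in each muscle. In HC-L tissue they took 0.00750%, 0.00632% and 0.00959% of miRNA reads in replicates 1, 2 and 3, and in the exosomes of this muscle 0.0258%, 0.0201% and 0.248%. In HC-P tissue the shares were 0.0586%, 0.00612% and 0.00547%, and in HC-P exosomes 0.0482%, 0.0564% and 0.182%. The HC-L groups did not overlap, whereas in HC-P the first tissue replicate lay above the first and second exosome replicates. The mean was 0.00780% ± 0.00165 (SD, n = 3) for HC-L tissue, 0.0980% ± 0.130 for its exosomes, 0.0234% ± 0.0305 for HC-P tissue and 0.0956% ± 0.0750 for its exosomes. Without HC-L exosome replicate 3 its group mean was 0.0230%, without HC-P exosome replicate 3 it was 0.0523%, and without HC-P tissue replicate 1 it was 0.00579%. Without novel_414, the predicted miRNA with the most reads, the means were 0.00588% ± 0.00201 for HC-L tissue, 0.0354% ± 0.0270 for its exosomes, 0.0103% ± 0.0108 for HC-P tissue and 0.0432% ± 0.0111 for its exosomes. The HC-P groups then no longer overlapped, with at most 0.0227% in tissue and at least 0.0345% in exosomes. As sums over all predicted miRNAs these shares carry no test.

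At full depth more predicted miRNAs were seen in HC-L tissue than in HC-L exosomes, the HC-P groups overlapped, and at equal depth more were expected in the exosomes of both muscles. With all reads, 31, 34 and 31 had a read in HC-L tissue, and 49, 34 and 25 in HC-P tissue. The exosome libraries showed 24, 25 and 23 for HC-L, and 41, 13 and 16 for HC-P. Thinned to the 106040 reads of the shallowest library, HC-L tissue was expected to show 4.49, 4.18 and 4.19 of them and HC-L exosomes 10.5, 10.2 and 16.3. HC-P tissue was expected to show 10.6, 3.64 and 3.40, and HC-P exosomes 14.9, 11.2 and 16.0. At this depth the groups of HC-L did not overlap, and neither did those of HC-P. Without its replicate 1, the HC-P tissue mean went from 5.88 ± 4.09 (SD, n = 3) to 3.52. miRNAs with a miRBase name differed less in proportion at the same depth. Their mean went from 183 ± 9.33 in HC-L tissue to 201 ± 15.5 in HC-L exosomes and from 192 ± 25.6 to 210 ± 15.04 in HC-P. The sets differ in abundance, with medians of 5 reads for predicted and 456 for named miRNAs over all libraries. The comparison is therefore not a like one, and the part of abundance in it was not tested.

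**Figure D1:**
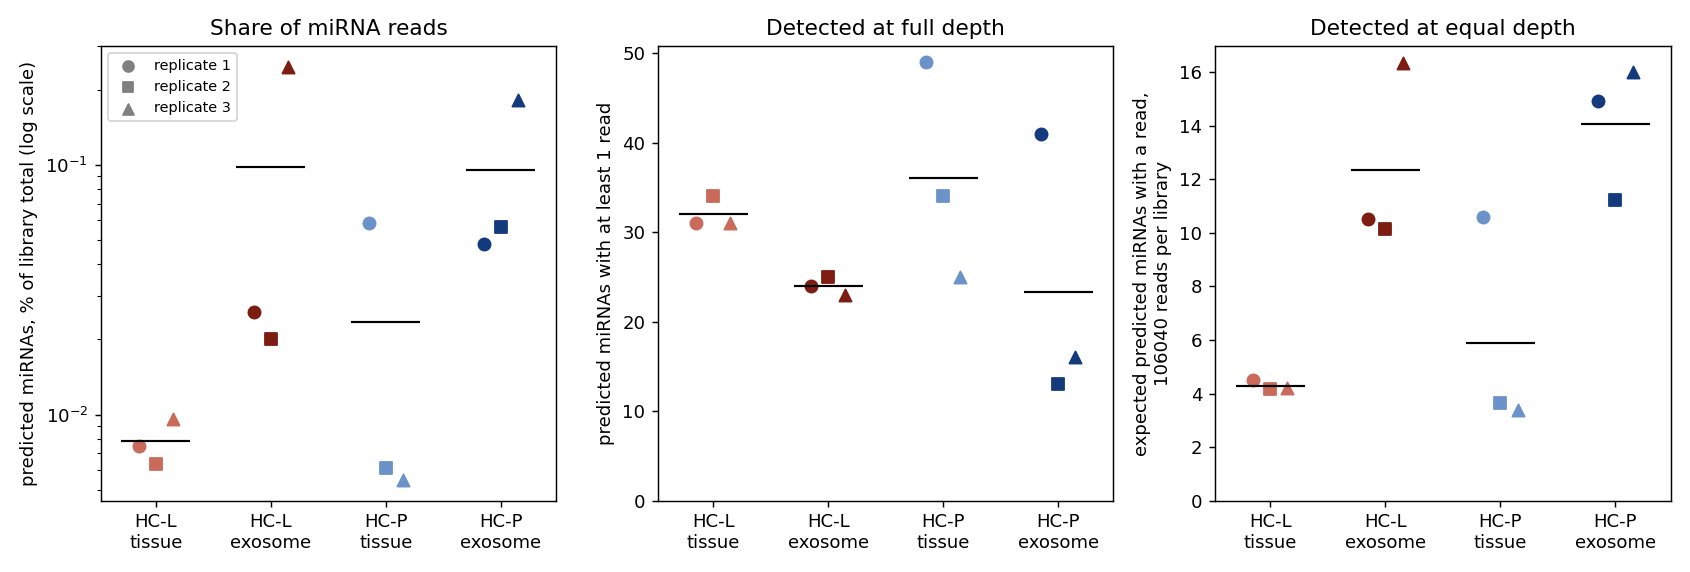
Predicted miRNAs in each of the 12 small RNA libraries: their share of miRNA reads in percent (left, log scale), the number with at least 1 read (middle) and the number expected with a read after thinning to 106040 reads (right). Symbols mark replicates and lines mark group means of 3 libraries. At equal depth both exosome groups lie above their tissue, with means of 12.3 and 14.1 against 4.29 and 5.88.

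Most of these reads fell on few entries. The 110 predicted miRNAs held 6608 reads in all, 4873 in tissue and 1735 in exosomes, and novel_414 alone held 43.8% of them. The first 5 by reads (novel_414, novel_275, novel_511, novel_84 and novel_36) held 84.1% of the tissue reads and 62.5% of the exosome reads of the predicted miRNAs. The median was 5 reads over all libraries, against 456 for miRNAs with a miRBase name. By mean level, novel_414 ranked 110 in tissue and 57 in exosomes among the 465 entries, and no other predicted one ranked above 121 in either. At the low end, 8 predicted miRNAs had no read, 70 had 1 to 9 reads, and 36 had reads in a single library.

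Many predicted miRNAs were read in tissue alone or in exosomes alone. Of the 110, 44 had reads only in tissue (214 reads in all), 27 only in exosomes (417 reads), 31 in both, and 8 in neither. Tissue libraries held 14.4 times as many miRNA reads in total as exosome libraries, so a tissue-only entry with few reads could go unseen in exosomes at this depth. For an exosome-only entry, 0 reads in tissue allow up to 0.129 TPM in HC-L and 0.175 TPM in HC-P, TPM being reads per 1000000 miRNA reads with no length term. Among miRNAs with a miRBase name, 6 of 355 (1.69%) were read only in exosomes, against 24.5% of the predicted ones, and the sets differ in abundance. Most of these entries had 1 to 9 reads, where 6 of 44 named (13.6%) and 21 of 70 predicted miRNAs (30.0%) were exosome-only. In the range of 10 to 99 reads it was 0 of 58 named against 4 of 24 predicted miRNAs, and at 100 or more reads 0 of 240 against 2 of 8. Tissue-only entries were 37 of 355 named (10.4%) and 44 of 110 predicted miRNAs. At 1 to 9 reads, which held 40 of the 44 predicted ones, the order was the opposite, at 63.6% of the named and 57.1% of the predicted.

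Both exosome-only and tissue-only reads recurred across the muscles, whose libraries are separate but may come from the same pigs. Each muscle had 23 predicted miRNAs read only in exosomes, and 14 (60.9% of each list) were the same in both. Tissue-only entries numbered 32 in HC-L and 44 in HC-P, and 17 were the same (53.1% and 38.6% of the lists). Among named miRNAs 1 was exosome-only in both muscles, of 3 and 7, and 22 were tissue-only in both, of 42 and 41. No predicted miRNA was tissue-only in HC-L and exosome-only in HC-P, and 2 were exosome-only in HC-L and tissue-only in HC-P. Of those 2, novel_175 had 3 and 1 reads in HC-L exosome replicates 1 and 2, none in HC-L tissue, and 21 and 1 reads in HC-P tissue replicates 1 and 3. The 14 were novel_267, novel_295, novel_308, novel_337, novel_338, novel_344, novel_364, novel_385, novel_405, novel_430, novel_453, novel_471, novel_515 and novel_537. Beyond novel_453 and novel_295 they held few reads each, with novel_338 at 16, novel_364 at 13 and novel_267 at 10 over all libraries. This list was named by its class, after the values were seen.

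**Figure D2:**
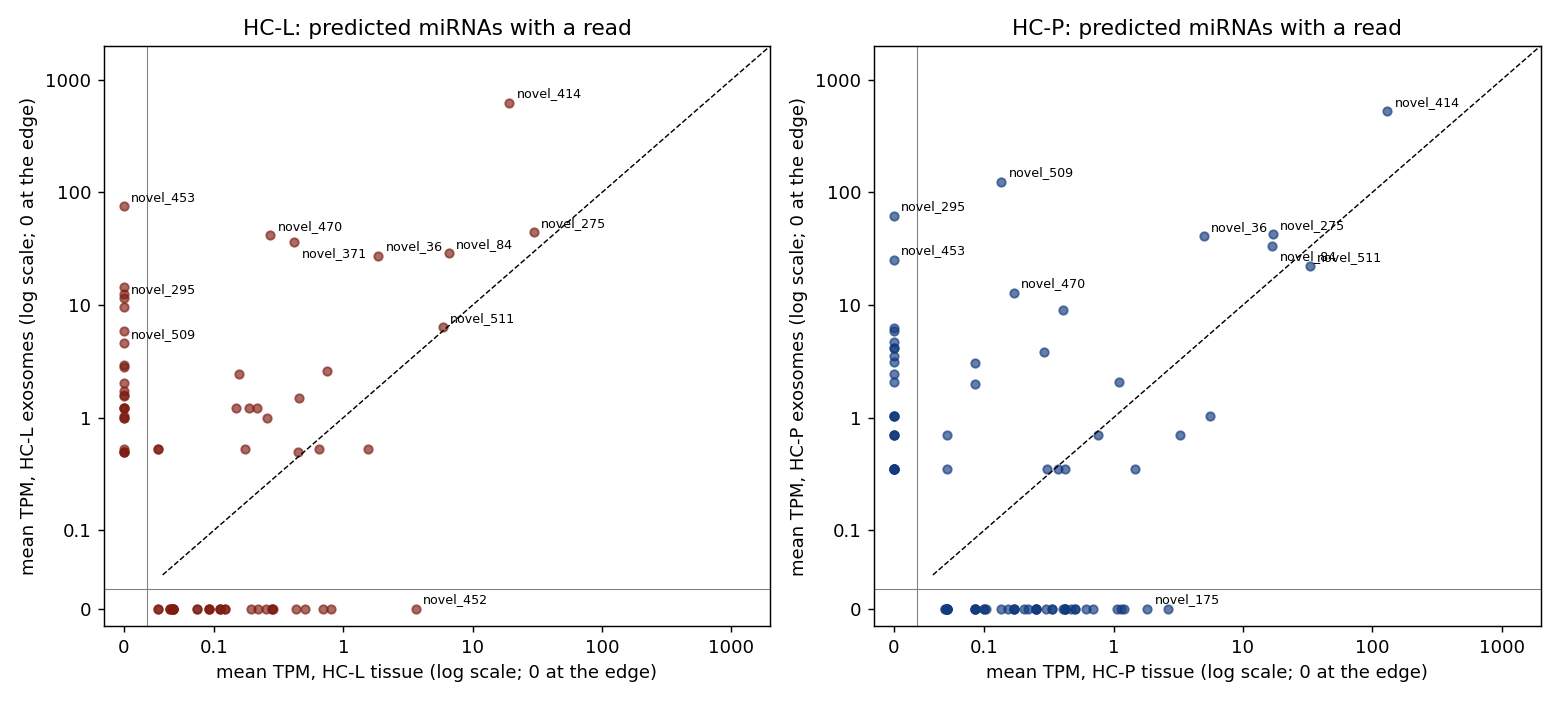
Mean deposited TPM of exosomes against tissue for predicted miRNAs with a read in HC-L (left) and HC-P (right), on log axes with 0 drawn at the edge and equality as a dashed line. Points on the left edge are the 23 exosome-only entries of each muscle, and novel_453 and novel_295 are the highest of those labelled in HC-L and HC-P.

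Whether single predicted miRNAs differed between exosomes and tissue was tested with edgeR across the whole table. An adjusted p under 0.05 over the 252 miRNAs with enough reads was called a change. Only 10 of the 110 predicted miRNAs had enough reads. Of these, novel_414, novel_275, novel_511 and novel_84 also had enough reads in tissue. The other 6 (novel_36, novel_371, novel_470, novel_295, novel_453 and novel_509) passed through exosome libraries alone, with at most 1 tissue library at the level of 4.06 TPM that 3 libraries had to reach. A difference was thus built into the choice of those 6. The counts that follow, and the exosome-tissue calls and p-values of those 6 given below, are therefore a description. In HC-L, 6 of the 10 rose in exosomes and 0 fell, where 6.35% of all tested miRNAs were called higher, 9.92% lower and 16.3% in either direction. In HC-P, 5 rose and 0 fell, where 9.13% were called higher, 16.7% lower and 25.8% in either direction. Every predicted miRNA called was among the 6. The median log2 fold change of the 10 was 4.06 in HC-L and 2.47 in HC-P, beside -0.40 and -0.70 over all tested miRNAs. With library totals in place of TMM scaling the medians of all tested miRNAs moved to 0.72 and 0.0029. The calls over all tested miRNAs then went from 16 higher and 25 lower to 19 and 3 in HC-L, and from 23 and 42 to 31 and 5 in HC-P, so the fold changes below are relative to the scaling.

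novel_453 was read in all 6 exosome libraries and in no tissue library. It had 53, 32 and 27 reads in HC-L exosomes and 20, 6 and 2 in those of HC-P, and 0 reads in each of the 6 tissue libraries. In deposited TPM this was 75.8 ± 23.8 (SD, n = 3) for HC-L exosomes and 25.1 ± 9.17 for those of HC-P. The HC-L exosome libraries (50.7 to 98.1 TPM) all lay above those of HC-P (18.9 to 35.6 TPM). Between the exosomes of the muscles edgeR did not call it (adjusted p = 0.991). How many of all miRNAs show such a lack of overlap was not counted. Against a floor of 3 reads over the tissue group it was at least 289-fold higher in HC-L and at least 88.2-fold higher in HC-P with TMM scaling, and at least 550-fold and at least 130-fold higher by library totals. It was called in HC-L (edgeR adjusted p = 0.000153) as in HC-P (0.000593), and in all 18 alternative fits of each muscle. It passed the filter through exosome libraries alone, so these calls describe the reads and are no separate evidence. Leaving out a tissue library also removes depth from such a bound. The lowest with TMM scaling were at least 179-fold without HC-L tissue replicate 1 and at least 49.6-fold without HC-P tissue replicate 1.

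novel_295 was also read only in exosomes, but unevenly. HC-L exosomes had 3, 3 and 7 reads and HC-P exosomes 141, 5 and 1, and the tissue libraries had 0. HC-P exosome replicate 1 alone held 141 of its 160 reads. It was at least 33.5-fold higher than in tissue in HC-L (edgeR adjusted p = 0.0196), and for HC-P the bound was at least 463-fold (adjusted p = 0.00214), by TMM, and at least 63.8-fold and 682-fold by library totals. The bounds that follow use TMM scaling. Without HC-P exosome replicate 1 the HC-P bound was at least 64.5-fold, and without HC-P tissue replicate 1 at least 260-fold. In HC-L the call was lost without tissue replicate 1 (adjusted p = 0.0559) and without tissue replicate 2 (adjusted p = 0.0597), where bounds were at least 20.8-fold and 22.5-fold. It was at least 21.6-fold without HC-L exosome replicate 3.

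novel_509 was high in HC-P exosomes. It had 33, 22 and 22 reads there (34.4, 131 and 207 TPM), 6, 3 and 0 in exosomes of HC-L, 1, 1 and 0 in HC-P tissue and none in HC-L tissue. Each HC-P exosome library lay above each HC-L exosome library and above each tissue library. Between the exosomes of the muscles edgeR did not call it (adjusted p = 0.289), while DESeq2 did (adjusted p = 0.00174). How many of all miRNAs show such a lack of overlap was not counted. By pooled reads it was 364-fold higher in HC-P exosomes than in HC-P tissue (exact 95% binomial interval 97.3 to 3057, counting error only; adjusted p = 0.000593) and at least 23.2-fold higher in HC-L (adjusted p = 0.0092). By library totals these were 536-fold and at least 44.2-fold. The HC-P ratios rest on 2 tissue reads, fewer than the floor of 3 reads used for bounds, so their size is uncertain. With TMM scaling the HC-P value went from 364-fold to 710-fold without HC-P exosome replicate 1. The HC-L call was lost without HC-L exosome replicate 1 (adjusted p = 0.0528), when 3 reads remain and no bound can be given. The HC-L bound with TMM scaling was at least 14.4-fold without HC-L tissue replicate 1.

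novel_470 and novel_371 had few reads in tissue, and their exosome reads lay mostly in HC-L exosome replicate 3. novel_470 had 2, 1 and 3 reads in HC-L tissue, 11, 0 and 30 in its exosomes, 2, 0 and 0 in HC-P tissue and 10, 0 and 3 in HC-P exosomes. The second exosome replicate of both muscles had none, so the groups overlapped. Its log2 fold change was 5.66 ± 1.33 (SE) in HC-L (edgeR adjusted p = 0.0169), and the value for HC-P was 5.51 ± 1.51 (adjusted p = 0.0216). The HC-L call was lost without HC-L exosome replicate 3 (4.45, adjusted p = 0.0633) or any HC-L tissue library, and the HC-P call without HC-P exosome replicate 1 (5.23, adjusted p = 0.104). novel_371 had 3, 5 and 2 reads in HC-L tissue, 0, 2 and 29 in its exosomes, 0, 3 and 5 in HC-P tissue and 2, 1 and 2 in HC-P exosomes. It was called in HC-L (4.68 ± 1.39, adjusted p = 0.039), where the first exosome replicate had no read. The HC-P value was 2.61 ± 1.68 (adjusted p = 0.247). Without HC-L exosome replicate 3 the HC-L value went to 1.54 (adjusted p = 0.585), and the call was also lost without any 1 HC-L tissue library, HC-L exosome replicate 2 or HC-P exosome replicate 2 (adjusted p from 0.0594 to 0.148). With the replicate number as a block it was 3.45 (adjusted p = 0.076).

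novel_36 was read in every library and was higher in exosomes by a smaller factor. Reads were 17, 10 and 15 in HC-L tissue, 11, 7 and 15 in its exosomes, 46, 12 and 10 in HC-P tissue and 8, 5 and 9 in HC-P exosomes. The deposited level stood at 1.86 ± 0.657 TPM in HC-L tissue, 27.3 ± 23.7 in HC-L exosomes, 4.98 ± 5.74 in HC-P tissue and 41.0 ± 39.5 in HC-P exosomes (SD, n = 3). In HC-L the groups did not overlap, and in HC-P tissue replicate 1 (11.6 TPM) lay above exosome replicate 1 (8.34 TPM). The HC-P overlap depended on the scaling. With TMM scaling HC-P tissue was at most 7.22 and HC-P exosomes at least 7.34, a narrow gap. The number of all miRNAs that separate in this way was not counted. The log2 fold change was 2.62 ± 0.75 (SE) in HC-L (edgeR adjusted p = 0.0373), and the value for HC-P was 2.34 ± 0.77 (adjusted p = 0.0406). The HC-L call was lost without any 1 of the 6 HC-L libraries (adjusted p from 0.0728 to 0.118), and the HC-P call in 11 of the 18 alternative fits, with library totals (adjusted p = 0.101) and the fit without HC-P exosome replicate 3 (1.68, adjusted p = 0.167) among them.

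**Figure D3:**
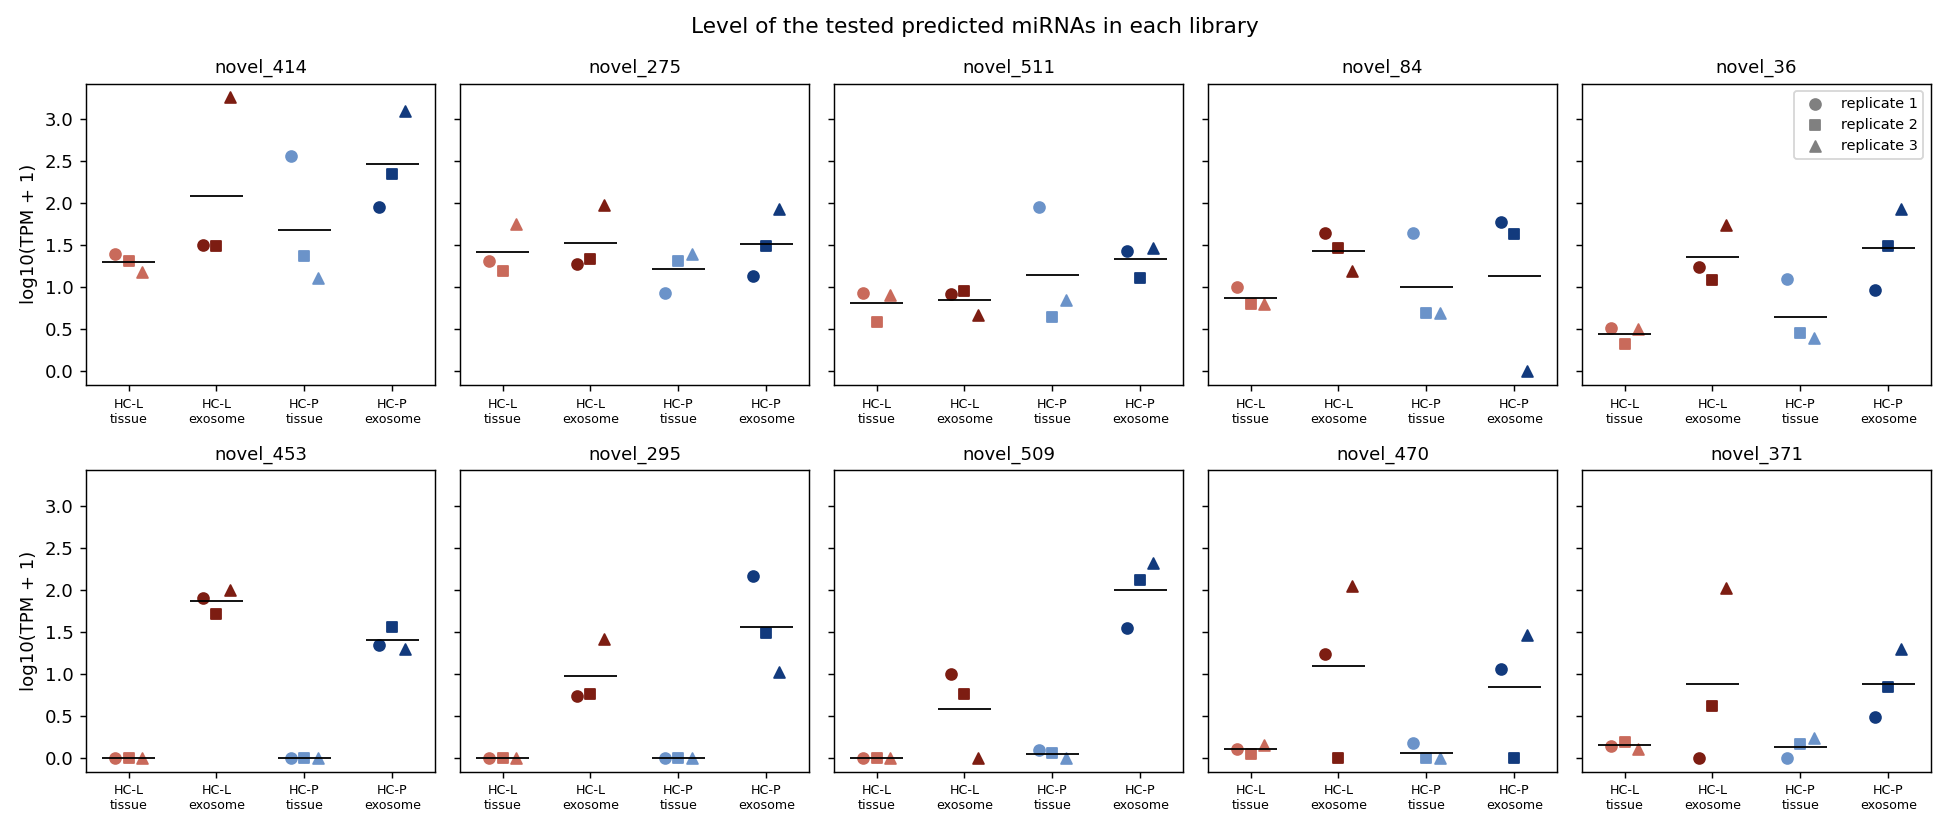
Level of the 10 tested predicted miRNAs in each of the 12 libraries, as log10 of TPM + 1, with symbols for replicates and lines for the mean of the 3 plotted values. The lower row holds entries with at most 5 reads in any tissue library, and novel_414 in the upper row is highest in HC-L exosome replicate 3, HC-P exosome replicate 3 and HC-P tissue replicate 1.

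The 4 entries abundant enough in tissue did not pass the test in either muscle. novel_414, the most abundant, had 174, 177 and 99 reads in HC-L tissue, 21, 19 and 500 in its exosomes, 1421, 145 and 79 in HC-P tissue and 85, 37 and 134 in HC-P exosomes. In TPM the HC-L exosome libraries were at 31.1, 30.1 and 1816, those of HC-P exosomes at 88.6, 220 and 1264, and the tissue libraries at 23.7, 19.6 and 14.3 for HC-L and 358, 22.3 and 11.8 for HC-P. It was thus highest in HC-L exosome replicate 3, HC-P exosome replicate 3 and, among tissue, HC-P tissue replicate 1, the libraries with the lowest muscle marker shares. The part of library composition in these levels was not tested. The log2 fold change was 3.43 ± 1.31 (SE) in HC-L (edgeR adjusted p = 0.0897), and the value for HC-P was 1.61 ± 1.23 (adjusted p = 0.333). Without HC-L exosome replicate 3 the first was 0.40, without HC-P exosome replicate 3 the second was 0.43, and without HC-P tissue replicate 1 the second was 3.47 (adjusted p = 0.0743). DESeq2 called novel_414 in HC-L (3.72, adjusted p = 0.00895), as did edgeR without HC-P tissue replicate 1 (3.49, adjusted p = 0.0408) and with no filter on low reads (3.63, adjusted p = 1.13e-05). With the replicate number as a block in edgeR, the HC-L value was 2.13 (adjusted p = 0.294).

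novel_275, the next by reads, had overlapping levels in tissue and exosomes. It had 144, 133 and 381 reads in HC-L tissue (29.8 ± 21.9 TPM; SD, n = 3), 12, 13 and 26 in its exosomes (44.3 ± 43.5), 30, 128 and 159 in HC-P tissue (17.0 ± 8.42) and 12, 5 and 9 in HC-P exosomes (42.4 ± 37.8). Unlike that of novel_414, its lowest tissue level was in HC-P tissue replicate 1, at 7.57 TPM. The log2 fold changes were -0.75 ± 0.83 (SE; edgeR adjusted p = 0.574) and -0.15 ± 0.87 (adjusted p = 0.92), and both turned positive with library totals (0.53 and 1.19).

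novel_511 and novel_84 were both highest among tissue libraries in HC-P tissue replicate 1. novel_511 had 56, 26 and 49 reads in HC-L tissue, 5, 5 and 1 in its exosomes, 353, 22 and 40 in HC-P tissue and 25, 2 and 3 in HC-P exosomes. Its values were -0.66 ± 0.91 (SE; edgeR adjusted p = 0.655) and -0.57 ± 0.86 (adjusted p = 0.655). The first turned to 0.17 with library totals and the second to 1.25 without HC-P tissue replicate 1. novel_84 had 66, 48 and 37 reads in HC-L tissue, 29, 18 and 4 in its exosomes, 169, 26 and 26 in HC-P tissue and 57, 7 and 0 in HC-P exosomes. Its values were 1.32 ± 0.91 (adjusted p = 0.343) and 1.15 ± 0.91 (adjusted p = 0.355). The HC-L value was 0.77 without HC-L exosome replicate 1 and 2.19 without HC-L exosome replicate 3. The HC-P value was 0.16 without HC-P exosome replicate 1, 1.76 without HC-P exosome replicate 3 and 2.40 without HC-P tissue replicate 1 (adjusted p = 0.0567). In TPM every HC-L exosome library (14.5 to 43.0) was above every HC-L tissue library (at most 9.003), while the HC-P groups overlapped. This separation in HC-L depended on the scaling. With TMM scaling the HC-L groups overlapped, at 8.74 to 11.9 in tissue and 7.47 to 39.7 in exosomes. The number of all miRNAs that separate in this way was not counted.

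**Figure D4:**
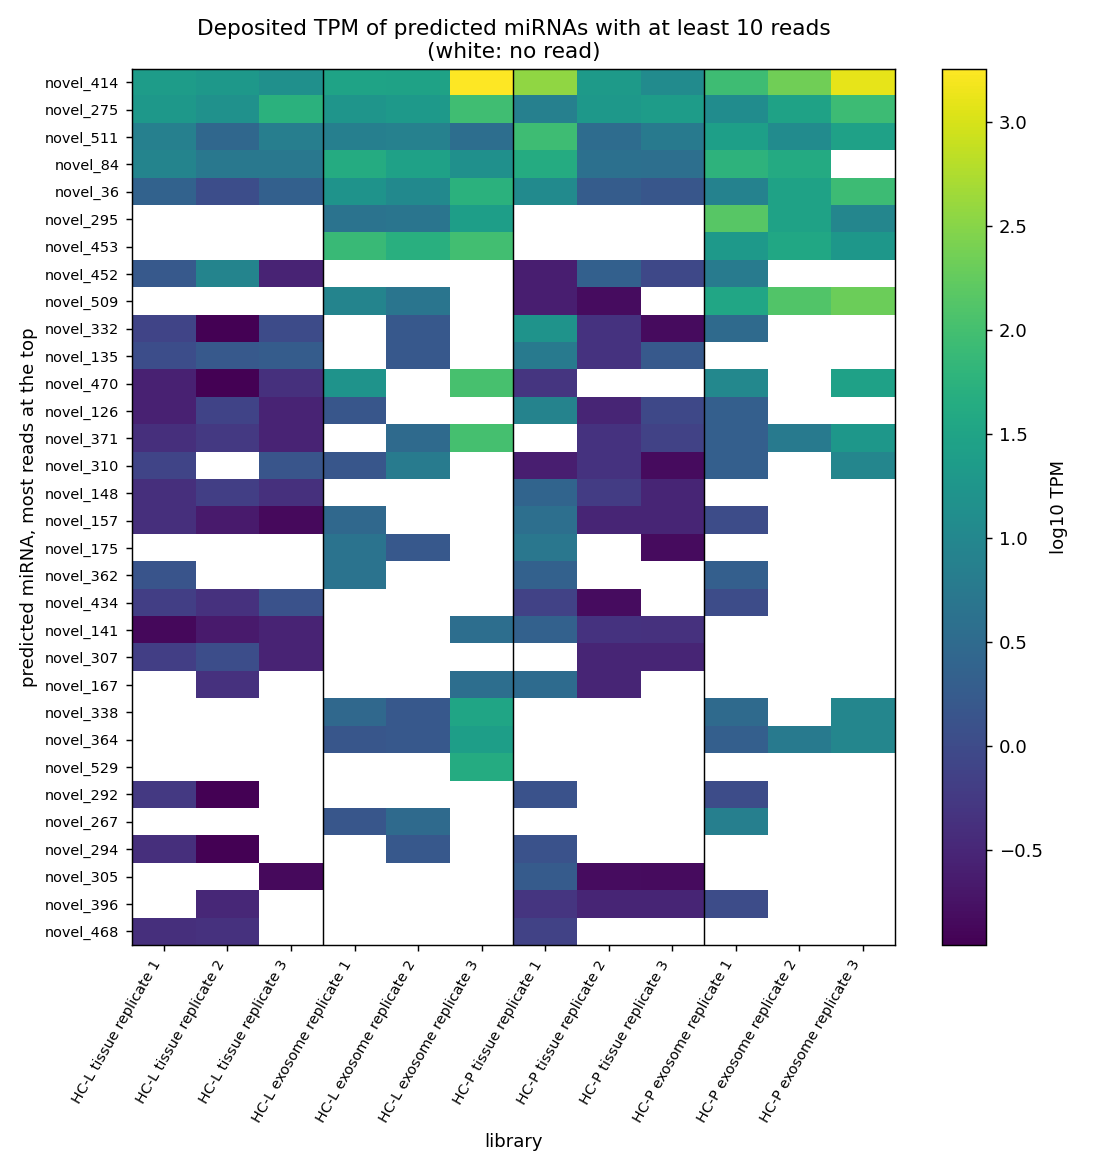
Deposited TPM (log10 colour scale) of the 32 predicted miRNAs with at least 10 reads, in rows from most to fewest reads, in the 12 libraries in columns. White marks no read: novel_295, novel_453, novel_338, novel_364, novel_529 and novel_267 are white in all 6 tissue libraries, and novel_148, novel_307, novel_305 and novel_468 in all 6 exosome libraries.

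Few tissue-only entries had many reads. Only novel_148 (28 reads) and novel_307 (21 reads) had at least 20 reads with none in exosomes. novel_148 had 3, 6 and 3 reads in HC-L tissue and 10, 4 and 2 in HC-P tissue, so all 6 tissue libraries held it. novel_307 had 5, 10 and 2 reads in HC-L tissue and 0, 2 and 2 in HC-P tissue. The other tissue-only entries with at least 10 reads were novel_305 and novel_468, at 10 each, named after their values were seen. In exosomes 3 reads are the limit that a count of 0 allows, 1.90 TPM in HC-L and 2.43 TPM in HC-P over the group, above the tissue level of both. Lower exosome levels were therefore not detectable at this depth. novel_452 had 12, 81 and 2 reads in HC-L tissue and none in HC-L exosomes, at most 0.244 times the tissue level with TMM and 0.465 times by library totals. That limit rests on HC-L tissue replicate 2, since without its 81 reads the tissue level was under the exosome floor and no limit could be given. In HC-P it had 1, 14 and 6 reads in tissue and 6, 0 and 0 in exosomes.

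novel_332, novel_126 and novel_135 were among the 10 highest in tissue and were highest in HC-P tissue replicate 1, with 64, 34 and 23 reads there. In the other 5 tissue libraries they had at most 7, 7 and 15 reads. Over the 6 exosome libraries they had 4, 3 and 1 reads. Of 22 predicted miRNAs with at least 10 tissue reads, 16 (72.7%) had their highest tissue TPM in HC-P tissue replicate 1. Among named miRNAs the share was 60.7% of 295.

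Markers of other cell types also had higher median levels in exosome libraries. With the libraries of both muscles pooled, only the epithelial list of these had ranges in tissue and exosomes that did not overlap. All markers of the lists used were found in every group. The summed level of 3 epithelial markers (miR-200b, miR-182 and miR-205) was 2.84 to 10.2 TPM in tissue and 50.0 to 396 TPM in exosomes. For the leukocyte markers miR-223 and miR-142-3p it was 5.99 to 19.3 TPM in tissue and 12.5 to 264 TPM in exosomes. Within HC-L the leukocyte ranges did not overlap, at 5.99 to 19.3 TPM in tissue and 28.2 to 149 TPM in exosomes. Within HC-P they did, at 9.99 to 17.9 TPM in tissue and 12.5 to 264 TPM in exosomes. Endothelial miR-126-3p took 4751 to 10383 TPM in tissue and 8568 to 28047 TPM in exosomes, and red cell miR-451 with miR-144 took 591 to 2123 and 898 to 4876 TPM. The part of these cells in the exosome reads of the predicted miRNAs was not tested.

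Between the muscles, 0 predicted miRNAs and 0% of all tested miRNAs were called by edgeR in exosomes, in tissue, or for the difference between the exosome-tissue differences. In exosomes 3 of the 10 had an unadjusted p under 0.05, and in tissue and for the difference 0 had. Among the 10, novel_295 and novel_453 had 0 reads in all 6 tissue libraries. The tissue test and the test of the difference therefore could not call them, and say nothing about whether their exosome-tissue difference is alike in the muscles. For HC-L against HC-P exosomes novel_509 had a log2 fold change below 0 (-4.002 ± 0.95, SE; edgeR adjusted p = 0.289), and novel_295 also had a negative value (-2.94 ± 1.09), while novel_453 had a positive one (1.70 ± 0.66; adjusted p = 0.991 for both). DESeq2 called novel_509 between the exosomes (-4.13, adjusted p = 0.00174), and 0 predicted miRNAs in the tissue comparison or the difference. Its calls over all miRNAs in these comparisons are not given here. The authors' deposited table gave novel_509 the value -4.07 with adjusted p = 0.00201, and novel_295 and novel_453 the adjusted p of 0.419 and 0.995. In all, 16.7% of its 6 rows, a list already selected as changed, were called.

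The authors' deposited tables of changed miRNAs called more predicted miRNAs than the fit here in HC-L, and as many in HC-P. For HC-L exosomes against tissue the authors' deposited table lists 16 predicted miRNAs, of which 12 have an adjusted p under 0.05, all higher in exosomes. Such a p holds for 71% of its 124 rows. For HC-P the authors' deposited table lists 11 with 5 called, where 42.5% of its 80 rows are called. Both hold miRNAs already selected as changed, so these are shares of selected lists and not of all miRNAs. Of the 12 and the 5, 7 and 4 had enough reads to be tested here. The remaining calls rest on few reads. In the authors' deposited table novel_529 has log2 fold change 7.93 and adjusted p = 0.0182 in HC-L, and all of its 12 reads were in HC-L exosome replicate 3. novel_338, with 2, 1 and 9 reads in HC-L exosomes, has adjusted p = 0.000123 in the authors' deposited table, and novel_364, with 1, 1 and 7 reads, has 0.000718. novel_515 had 0, 2 and 4 reads in HC-L exosomes and novel_385 had 0, 3 and 1, with adjusted p = 0.0101 and 0.0414 in the authors' deposited table. For HC-P the fifth call is novel_364, with 2, 1 and 1 exosome reads and adjusted p = 0.0381 in the authors' deposited table. Also listed, with adjusted p from 0.0561 to 0.199 in the authors' deposited tables, are novel_175, novel_308, novel_267 and novel_452 for HC-L and novel_36, novel_385, novel_338, novel_404, novel_494 and novel_496 for HC-P. Of these, novel_494 had 2 reads, in HC-P exosome replicate 3 alone, and novel_404 had 3 and 1 reads in HC-P exosome replicates 1 and 3. novel_84 has adjusted p = 0.0291 in HC-L in the authors' deposited table and was not called here.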

How the data were processed

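Small RNA libraries were made with an Illumina TruSeq kit, per the labels' protocols. The authors deposited read counts for each mature miRNA in every library, with a TPM value that equals the count over the library total times 1000000. Their tables of changed miRNAs give a deposited signal (a single read count value per group that is not whole, per the file headers and values), a log2 fold change and p-values. Aligner, genome build, prediction software and statistical tool: not given in the sources used here. All 12 small RNA libraries entered a single edgeR 4.0.16 quasi-likelihood fit in R 4.3.3, with filterByExpr over the 4 groups, TMM scaling and Benjamini-Hochberg adjustment within each of 5 contrasts. The common dispersion was 0.346. The fit was tested on simulated counts. Expected detection at equal depth came from the hypergeometric distribution in SciPy 1.17.1. Shares and bounds used a floor of 3 reads over the group and exact 95% binomial intervals. These intervals use reads pooled over libraries, so they cover counting error only and leave out the spread between libraries. No molecular identifiers are named in the labels, so reads and not molecules were counted. Alternatives were DESeq2 1.42.0 and its size factors, library totals, other filters, a replicate block and leaving out each library.

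Predicted miRNAs were named if called in a contrast, among the 10 highest in tissue or in exosomes, read at least 20 times in only 1 kind of sample, listed in the authors' deposited tables, or at the largest or smallest tested fold change, which gave 27. The members, lists and this rule were chosen with earlier results of these data known. Deviations of same-numbered libraries of HC-L tissue and exosomes from their group means correlated over 252 miRNAs (r = 0.392, 0.371 and 0.527). In HC-P the correlations were 0.111, 0.036 and 0.140. Between the muscles they were 0.168, 0.128 and 0.230 in tissue and 0.342, 0.211 and 0.295 in exosomes. Correlations of differently numbered libraries were not computed, so these values do not settle whether the numbers pair the libraries. The main fit took no pairing, and the replicate block is given as an alternative. Between the muscles the block gave 0 calls, as did the fit without it. Bounds of novel_452 without each library were added after seeing the data. The 6 mRNA libraries were not used here.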

Additional observations from a re-analysis of the deposited data

How the results depend on the processing

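Counts of predicted miRNAs called depended on the filter and on single libraries. For HC-L exosomes against tissue, with 6 of 10 called by edgeR, no filter gave 16 of 102 (15 higher, and novel_452 lower), and leaving out 1 library gave 2 to 7. Calls over all miRNAs were 41 with the filter and 54 without. The lowest count, 2, came without HC-L tissue replicate 1 or 2, where calls over all miRNAs also fell, to 12 and 10. Without HC-P tissue replicate 1 they were 81, with 7 predicted. For HC-P, with 5 (65 over all miRNAs), no filter gave 11 (83) and a minimum of 10 summed reads gave 8 of 32 (57). Between the exosomes DESeq2 and no filter each gave 1 (novel_509). Calls over all miRNAs in those exosome fits are not given here, so this count has no background beside it. Between the tissues no filter gave 2 (novel_414 and novel_175) among 28 over all miRNAs. The replicate block left 5 calls for HC-L and 4 for HC-P, where novel_36 had adjusted p = 0.0540, and the block gave 0 between the muscles. Among fold changes that turned, novel_275 in HC-L was 0.53 with library totals and ranged from -0.93 to 0.38 when 1 library was left out, and novel_511 was 0.17 and ranged from -1.06 to 0.18. In HC-P novel_275 was 0.19 with DESeq2 size factors, 1.19 with library totals, 0.20 by DESeq2 and 0.10 with the replicate block, and ranged from -0.68 to 0.93, while novel_511 ranged from -1.15 to 1.25. The cause of these turns was not tested. Without the 3 most abundant miRNAs in the denominator the share of predicted miRNAs was 0.0346% in HC-L tissue, 0.257% in its exosomes, 0.0502% in HC-P tissue and 0.280% in HC-P exosomes. Without novel_414 it was 0.00588%, 0.0354%, 0.0103% and 0.0432% in the same order. At equal depth with at least 3 reads, 0.920 and 5.04 entries were expected in HC-L tissue and exosomes and 1.59 and 5.65 for HC-P. At 53020 reads 2.74 were expected in HC-L tissue and 10.2 in HC-P exosomes. When 1 library was left out HC-L tissue ranged from 4.19 to 5.59, the highest at the 168341 reads that remain without HC-P exosome replicate 3. Depth limited detection to 0.333 to 0.757 TPM in tissue libraries and 3.13 to 28.3 TPM in exosome libraries (3 reads).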

Other observations

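Reads confined to a single library made up little of the total. In all, 36 predicted miRNAs with 87 reads were read in 1 library each. HC-P tissue replicate 1 held 11 of them (29 reads), HC-P exosome replicate 1 held 6 (12 reads), HC-L tissue replicate 3 held 5 (16 reads) and HC-L exosome replicate 3 held 3 (14 reads). The entries with the most such reads were novel_529, with 12 in HC-L exosome replicate 3, and novel_240, with 9 in HC-L tissue replicate 3, the latter named after its values were seen. Only 4 predicted miRNAs (novel_414, novel_275, novel_511 and novel_36) had a read in each of the 12 libraries. novel_344 and novel_430 carried equal counts, 1 read in each of the same 2 libraries.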
